A study of Mus musculus with 4 samples.

Results

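The guidance genes described here are the semaphorins of classes 3 to 7, the plexins, the neuropilins Nrp1 and Nrp2, the ligands Slit1 to Slit3 and the receptors Robo1 to Robo3, measured in mouse muscle satellite cells. They were chosen by gene symbol alone: every probe set whose single symbol on the platform annotation began with Sema3 to Sema7 or Plxn, or was 1 of the neuropilin, Slit or Robo symbols, was taken. This gave 91 probe sets for 38 genes, out of 45101 probe sets in all and 18193 genes with a name. One of the 38, Plxna4os1, is annotated as an opposite-strand transcript and was taken in by its symbol. The conditional knockout (cKO) cells came from mice of the genotype Pax7Cre/+, Calcr flox/flox and Rosa-YFP/YFP, and the control cells from Pax7Cre/+, Calcr +/+ and Rosa-YFP/YFP mice. Mice of both genotypes carried the tamoxifen-dependent Cre at Pax7, were 10 weeks old and had received tamoxifen, so the floxed Calcr alleles set the genotypes apart; recombination and the YFP label were limited to cells that expressed Pax7 at the time of tamoxifen and to their progeny. YFP-positive satellite cells, the stem cells of skeletal muscle, were sorted 2 weeks after tamoxifen and used without culture. Each genotype had 2 samples, called biological replicates 1 and 2 in the titles, on 1 array each. Whether a replicate number marks a shared day, litter or sort, and how many mice went into a sample, the sources used here do not give.

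Semaphorins and Slits are guidance cues, first known from growing axons and since found in vessels, immune cells and muscle. Class 3 semaphorins are secreted and mostly bind a neuropilin, which holds the ligand while a plexin of the A or D type carries the signal into the cell; classes 4 to 6 span the membrane and mostly bind plexins directly, and Sema7a is tethered by a lipid anchor. Plexins act through small GTPases on the cytoskeleton and on integrin adhesion, and Slits act likewise through Robo receptors. In rodent muscle Sema3a is known as a product of satellite cells during repair. The comparisons ask which of these genes sorted satellite cells show, whether they differ between Calcr cKO and control cells, and whether they differ between the arrays numbered 1 and those numbered 2.

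Values are MAS5 signals, a linear measure of brightness per probe set. No detection calls were used, so the median level of all probe sets, a signal of 63.9, served as the filter: a probe set was kept when its mean log2 value over the 4 arrays reached that level. A probe set's brightness depends on its own probes, so levels are compared between arrays and never between genes. Median signals ran from 57.8 to 70.4 over the 4 arrays. Calcr, the deleted gene, read 568 and 684 in cKO cells against 1268 and 1424 in control cells. All 13 satellite cell markers on the list used, Pax7, Vcam1 and Sdc4 among them, were at or above the filter signal on every array. So were 7 of 11 fibro-adipogenic markers and 11 of 14 muscle fibre markers, and these readings do not measure purity. Endothelial markers were not evenly spread: the summed signal of 17 of them was 13258 on cKO replicate 1 and 14232 on control replicate 1, and 1853 on cKO replicate 2 and 1562 on control replicate 2. In sorted material such as this, fewer cells of a type and less RNA per cell cannot be told apart.

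Of the 38 genes, 15 (39.5%) were at or above the filter signal on all 4 arrays with their brightest probe set, against 49.6% of all named genes. They were 4 plexins, 4 class 4 semaphorins, 3 class 6 semaphorins, the class 3 genes Sema3a and Sema3b, Nrp1 and Robo1. Another 9 passed on some arrays only, and 14 passed on none. Of the 91 probe sets 43 were kept, covering 24 genes.

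Among the receptors, Plxna2, which binds class 6 semaphorins directly and class 3 ones together with neuropilins, read 1562 and 1527 in cKO cells and 1746 and 1376 in control cells. The genotypes overlapped, and all 4 of its probe sets were above the filter signal on every array. Plxnd1, the receptor of Sema3e, read 352 and 338 in cKO cells and 332 and 361 in control cells, so that its 4 signals had an SD of 13.4 about a mean of 346 (n = 4). Plxnb2, a receptor of class 4 semaphorins, read 725 and 646 in cKO cells and 401 and 755 in control cells; control replicate 1 stood below the other 3 arrays. Plxna1, a signalling partner of neuropilins, read 462 and 328 in cKO cells and 340 and 297 in control cells, and cKO replicate 1 was the highest. The Slit receptor gene Robo1 read 958 and 974 in cKO cells and 807 and 993 in control cells, again with overlap. Its second kept probe set read 138 and 89.0 in cKO cells and 182 and 100 in control cells. It overlapped too, but was higher on the arrays numbered 1 in both genotypes (log2 difference 0.74), where the brightest was lower.

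Among the ligands, the class 4 gene Sema4c, whose receptor is Plxnb2, read 937 and 1103 in cKO cells and 1132 and 1055 in control cells. Sema4b read 226 and 167 in cKO cells and 173 and 254 in control cells. Both genes overlapped between genotypes, and neither had its high arrays on 1 replicate number. The class 6 gene Sema6d, a ligand of Plxna1, read 316 and 330 in cKO cells and 347 and 305 in control cells. Sema3a, a secreted ligand that binds Nrp1, read 395 and 388 in cKO cells and 374 and 435 in control cells. For Sema6d and Sema3a all 4 arrays lay close together, with SDs of 18.0 and 26.2 about means of 324 and 398 (n = 4 each).

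For these genes the intervals bound the difference between genotypes. With limma, the moderated linear model fitted over all 22519 kept probe sets, the log2 difference of cKO minus control was -0.01 for Plxna2 (95% interval -0.52 to 0.50) and -0.01 for Plxnd1 (-0.72 to 0.71). For Sema3a it was -0.04 (-0.75 to 0.66), for Sema4c -0.10 (-0.66 to 0.45) and for Robo1 0.11 (-0.48 to 0.70). Differences inside these intervals could not be told from none with 2 arrays a group.

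**Figure D1:**
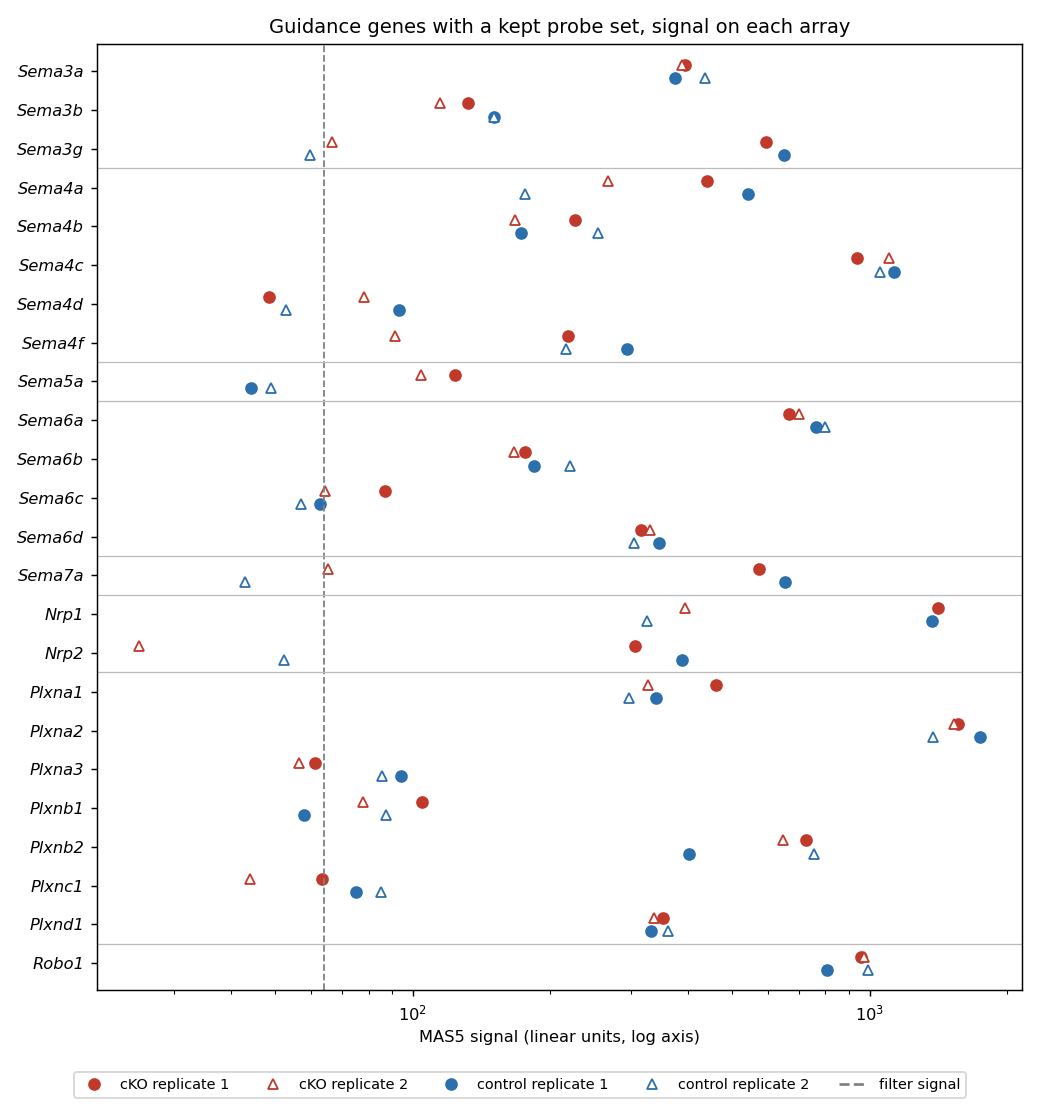
MAS5 signal (linear units, log axis) of the 24 guidance genes with a kept probe set, brightest probe set of each, on the 2 cKO arrays (red, upper line of each gene) and the 2 control arrays (blue, lower line); circles are replicate 1, triangles replicate 2, and the dashed line is the filter signal of 63.9. Sema3g, Sema7a, Nrp1 and Nrp2 have both circles far to the right of both triangles, while Sema5a has both cKO arrays to the right of both control arrays; signals of different genes are not comparable.

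The 14 genes under the filter signal on all 4 arrays with their brightest probe set included all 3 Slits and the receptors Robo2 and Robo3. Slit2 read 35.2 and 32.5 in cKO cells and 43.0 and 56.6 in control cells, Slit1 reached at most 45.1 and Slit3 at most 5.95. Robo2, with 1 probe set, was at 0.362 and 0.581 in cKO cells and 1.80 and 0.424 in control cells. Robo1 was thus the 1 gene with a kept probe set among Slit1 to Slit3 and Robo1 to Robo3. The other genes under the filter were Sema3c, Sema3d, Sema3e, Sema3f, Sema4g, Sema5b, Plxna4, Plxnb3 and Plxna4os1. Such readings may be low expression or poorly binding probes, and no absence is claimed from them.

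The clearest pattern among the guidance genes ran by replicate number and not by genotype. Sema3g, Sema7a, Nrp1 and Nrp2 were higher on the arrays numbered 1 than on those numbered 2, in cKO and in control cells alike. Sema3g, a class 3 ligand known from arterial endothelium, read 592 (cKO) and 651 (control) on the arrays numbered 1, against 66.6 (cKO) and 59.6 (control) on those numbered 2. That is a 9.71-fold difference, with a log2 difference of 3.28 (SE 0.28) and a limma adjusted p of 0.000155. Sema7a, which binds Plxnc1 and integrins, read 571 (cKO) and 651 (control) on the arrays numbered 1, against 65.1 (cKO) and 42.9 (control) on those numbered 2, a log2 difference of 3.50 (SE 0.31, limma adjusted p = 0.000184). The numbers did not overlap in either gene, and the ratio was 8.76 in cKO and 10.7 in control for Sema3g and 8.66 in cKO and 14.9 in control for Sema7a. Both genes averaged under the filter signal on the arrays numbered 2. They were kept through the arrays numbered 1 and had to be higher there, so their direction was set by the filter.

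The 2 neuropilins went the same way. Nrp1, co-receptor for class 3 semaphorins and for VEGF, read 1412 (cKO) and 1365 (control) on the arrays numbered 1, against 394 (cKO) and 325 (control) on those numbered 2 (log2 difference 1.95, SE 0.23, limma adjusted p = 0.00118). It was 3.58-fold higher in cKO and 4.19-fold higher in control. Unlike the other 3 genes, Nrp1 stayed above the filter signal on the arrays numbered 2 as well, with 3 of its 4 probe sets. Nrp2, known from veins and lymphatic vessels, read 307 (cKO) and 388 (control) on the arrays numbered 1, against 25.1 (cKO) and 52.2 (control) on those numbered 2 (log2 difference 3.21, SE 0.39, limma adjusted p = 0.00141). Like Sema3g and Sema7a it was kept through the arrays numbered 1 and had to be higher there.

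By count, 8 of the 43 kept probe sets (18.6%) were higher on the arrays numbered 1 at a limma adjusted p under 0.05, against 2.12% of all kept probe sets, and 0 were lower. All 8 belong to these 4 genes, and all 8 were at least 2-fold higher on number 1 in both genotypes, as were 2.86% of all kept probe sets. For Nrp2 (2 probe sets) and Sema7a (1 of 2), both arrays numbered 2 were under the filter signal, so they were kept through the arrays numbered 1 and had to differ. The probe set of Sema3g and the brightest of Sema7a averaged 63.1 and 54.0 on the arrays numbered 2, also under that signal. They too were kept through the arrays numbered 1 and had to be higher there. Of the 8, only those of Nrp1 were not kept in this way. Among probe sets at or above the filter signal on all 4 arrays, 3 of 30 passed (10.0%), all of Nrp1, against 1.04% overall. Without control replicate 1 the count was 5 in place of 8, where number 1 was left with cKO replicate 1 alone, assumed to vary like the arrays numbered 2; the call on the brightest probe set held for all 4 genes there (limma, largest adjusted p = 0.0270).

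Other ligands and receptors differed by number less or not at all. Sema4a, a class 4 semaphorin of immune and vessel cells, read 441 (cKO) and 541 (control) on number 1, against 268 (cKO) and 176 (control) on number 2 (log2 difference 1.17, limma adjusted p = 0.0922). It passed when cKO replicate 2 was left out (limma adjusted p = 0.00172). The probe set bears the suffix x, which marks probes that may bind further transcripts; its unsuffixed partner gave 0.93 (limma adjusted p = 0.198). Counting every kept probe set whose arrays did not overlap between numbers, 18 (41.9%) were higher on number 1, against 26.2% of all, and 2 (4.65%) lower, against 18.5% of all. The split changed with the scaling, to 13 higher and 8 lower after quantile normalization and 12 and 10 with arrays centred on their median. Among all kept probe sets without overlap the share higher changed too: 58.6% as deposited, 45.3% after quantile normalization and 31.1% centred. Among the members it was 90%, 61.9% and 54.5% in the same order, larger than the share of all each time. Centring put the median number difference over all kept probe sets at -0.15, against 0.04 as deposited, so the small differences have no settled sign. Over the 43 kept probe sets the median was 0.17.

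**Figure D2:**
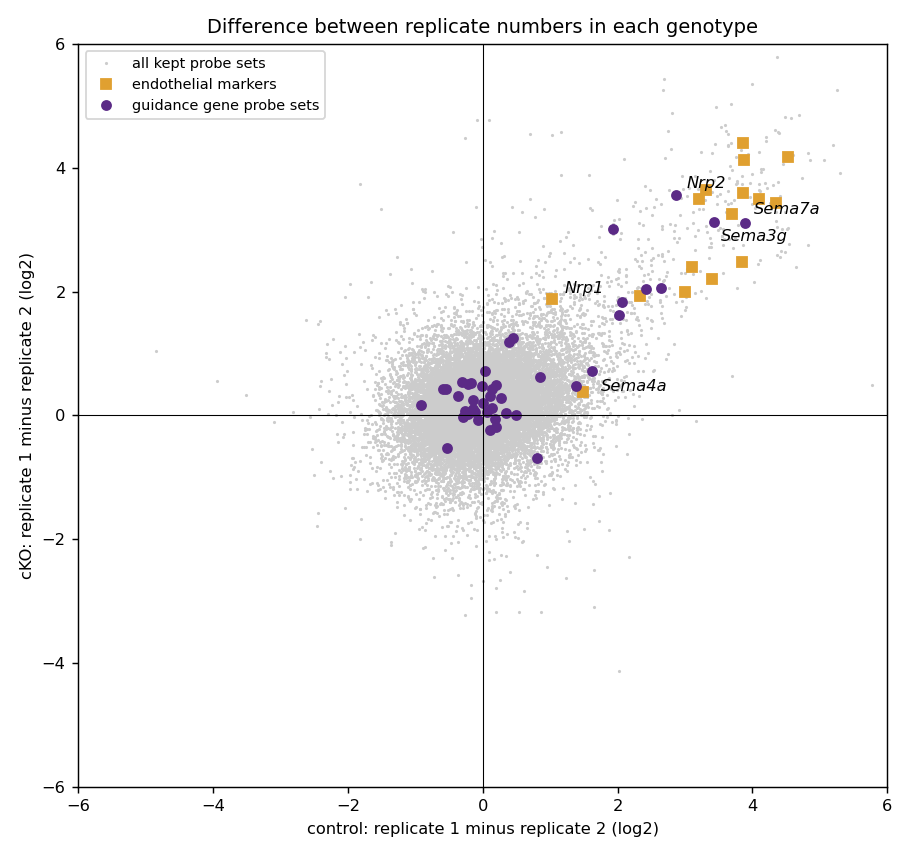
Log2 difference of replicate 1 minus replicate 2 in cKO cells (vertical) against the same in control cells (horizontal) for all 22519 kept probe sets (grey), 16 kept endothelial markers (orange squares) and the 43 kept guidance probe sets (purple). The probe sets of Sema3g, Sema7a, Nrp1 and Nrp2 lie to the upper right among the endothelial markers, and most other guidance probe sets lie near 0 on both axes.

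Several marker lists moved with the same arrays. Of the 16 kept endothelial markers 14 passed the same limma test, all higher on number 1, among them Cdh5 (VE-cadherin), at 1060 (cKO) and 1044 (control) against 110 (cKO) and 79.7 (control). Their median log2 difference was 3.41, and the median signal of the 17 markers on the array was 579 (cKO) and 745 (control) on number 1 and 93.9 (cKO) and 62.5 (control) on number 2. For Kdr, Emcn, Ecscr and Robo4 both arrays numbered 2 were under the filter signal, so these were kept through the arrays numbered 1. Of 11 kept pericyte and smooth muscle markers 5 passed, as did the nerve-sheath marker Mbp, 1 of 5 kept on the Schwann list, and the tendon marker Fmod, 1 of 2 on the tenocyte list. None of the 13 satellite cell, 9 fibro-adipogenic, 8 leukocyte or 13 muscle fibre markers did. Summed signals on number 1 (cKO, control) against number 2 (cKO, control) were 21220 and 18489 against 10388 and 13051 for pericyte markers, 4853 and 4689 against 3123 and 3556 for Schwann markers, and 838 and 692 against 267 and 336 for tenocyte markers. The part of these cells in the guidance differences was not tested. Plxna2, Plxnd1, Sema3a, Sema4c, Sema6a, Sema6d and Robo1 differed by at most 0.19 on the log2 scale between numbers on their brightest probe set as deposited. Some dimmer kept probe sets differed more, such as 1 of Robo1 (0.74) and 1 of Sema6a (-0.53). Which cells gave these signals was not tested.

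Below are the 250 bases before the annotated start of the 4 genes called by replicate number, and of Plxna2, a member not called. Plxna2 was higher on number 1 without overlap on its brightest probe set, by 0.19 on the log2 scale. The sequences are shown because 4 genes moved together and their promoters are the sequences nearest to that pattern. They are from RefSeq (GRCm38.p6), 5′ to 3′ along the gene. Capitals mark the E-box CAGCTG, a site read by myogenic and other basic helix-loop-helix factors.
Sema3g (chr14:31217623-31217872, plus strand): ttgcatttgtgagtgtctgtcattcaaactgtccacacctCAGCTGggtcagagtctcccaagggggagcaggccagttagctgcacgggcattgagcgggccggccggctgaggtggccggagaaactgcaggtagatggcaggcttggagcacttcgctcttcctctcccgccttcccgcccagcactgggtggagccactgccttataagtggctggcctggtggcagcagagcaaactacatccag
Sema7a (chr9:57939862-57940111, plus strand): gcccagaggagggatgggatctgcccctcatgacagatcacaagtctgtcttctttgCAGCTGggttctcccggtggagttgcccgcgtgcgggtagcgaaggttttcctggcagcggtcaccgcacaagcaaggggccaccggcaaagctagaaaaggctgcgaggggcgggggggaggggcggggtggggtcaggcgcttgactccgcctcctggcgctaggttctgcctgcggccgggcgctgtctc
Nrp1 (chr8:128358823-128359072, plus strand): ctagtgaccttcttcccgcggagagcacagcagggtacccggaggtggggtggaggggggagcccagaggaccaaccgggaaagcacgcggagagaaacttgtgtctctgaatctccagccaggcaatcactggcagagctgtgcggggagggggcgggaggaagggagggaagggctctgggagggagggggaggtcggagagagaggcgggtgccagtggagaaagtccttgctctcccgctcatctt
Nrp2 (chr1:62703067-62703316, plus strand): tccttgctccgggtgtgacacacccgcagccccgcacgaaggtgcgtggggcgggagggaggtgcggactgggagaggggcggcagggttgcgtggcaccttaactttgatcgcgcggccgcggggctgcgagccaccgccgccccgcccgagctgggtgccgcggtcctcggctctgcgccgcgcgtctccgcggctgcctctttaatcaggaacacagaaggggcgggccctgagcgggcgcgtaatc
Plxna2 (chr1:194619579-194619828, plus strand): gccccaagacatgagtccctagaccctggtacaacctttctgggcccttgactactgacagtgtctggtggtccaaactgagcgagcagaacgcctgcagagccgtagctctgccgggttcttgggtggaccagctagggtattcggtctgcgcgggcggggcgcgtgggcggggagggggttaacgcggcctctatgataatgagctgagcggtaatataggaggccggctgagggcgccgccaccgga

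The motifs searched, on both strands, were the E-box CAGCTG, the ETS core CCGGAA and the cAMP response element TGACGTCA; the first and the last read the same on both strands, and no matches overlapped in the windows printed. The E-box was found in Sema3g, 210 to 205 bases before the start, and in Sema7a, 193 to 188 bases before it, and no match to any of these was found in the windows of Nrp1, Nrp2 or Plxna2. Over all 32851 windows of that length, 13.0% held the E-box, 3952 held the ETS core and 1.55% held the cAMP element. Windows were listed for 31 of the 38 genes, 44 in all. Of these 7 (15.9%) held the E-box, 4 (9.09%) the ETS core and 0 the cAMP element. Guidance gene windows had a median of 63.8% G and C, against 52.4% over all windows. A match of letters is a description and shows no binding.

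Between genotypes, no guidance gene passed the test, and among kept probe sets the one farthest apart was of Sema5a. Sema5a, a membrane semaphorin with thrombospondin repeats, read 124 and 104 in cKO cells, against 44.3 and 49.0 in control cells. Both cKO arrays were above both control arrays, by 1.46 on the log2 scale between the arrays numbered 1 and 1.07 between those numbered 2. The pooled log2 difference was 1.27 (SE 0.40, 95% interval 0.33 to 2.21), a 2.41-fold difference, with a limma unadjusted p of 0.0151 and a limma adjusted p of 0.99999. Both control arrays were under the filter signal, so the probe set was kept through the cKO arrays, and without either cKO array it no longer passed the filter. With a pseudocount of 32 the difference was 0.89.

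The other 3 probe sets of Sema5a, all under the filter, gave no common direction. One read 61.3 and 79.4 in cKO cells and 65.5 and 31.2 in control cells, the next 60.3 and 51.2 in cKO cells and 85.3 and 28.3 in control cells. The dimmest read 1.78 and 1.58 in cKO cells and 23.3 and 1.60 in control cells. All 3 overlapped between genotypes, and only the brightest of the 4 probe sets separated them upwards.

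On the other side, 2 plexins at the edge of the filter were lower on both cKO arrays. Plxna3, which with Nrp2 transmits Sema3f, read 61.1 and 56.4 in cKO cells, against 94.1 and 85.6 in control cells. Its log2 difference was -0.60 (SE 0.40, limma unadjusted p = 0.171), with -0.61 between the arrays numbered 1 and -0.59 between those numbered 2. Its second probe set, under the filter, read 14.2 and 12.7 in cKO cells, against 32.4 and 61.1 in control cells, also without overlap. Plxnc1, the receptor of Sema7a, read 63.4 and 44.0 in cKO cells, against 75.1 and 85.3 in control cells (log2 difference -0.59, SE 0.43, limma unadjusted p = 0.210). Most of that lay between the arrays numbered 2 (-0.94, against -0.24 between those numbered 1), and its 5 other probe sets were all under the filter. Both plexins were kept through the control arrays. Leukocyte markers moved with genotype between the arrays numbered 2: over the 19 on the array the summed signal was 1862 and 750 in cKO cells, against 1680 and 3323 in control cells, so that cKO replicate 2 was lowest and control replicate 2 highest. Of the 8 kept, 0 passed by genotype, 2 were lower in cKO without overlap (Laptm5 and Fcer1g), and the median log2 difference was -1.19. Laptm5 read 86.6 and 23.7 in cKO cells, against 313 and 328 in control cells (log2 difference -2.79, limma unadjusted p = 0.00199). Their part in the guidance gene differences was not tested.

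Smaller differences without overlap were found in 7 further ligand genes with their brightest probe set or another kept one. Sema3b, a secreted ligand, read 132 and 115 in cKO cells, against 151 and 150 in control cells (log2 difference -0.29, SE 0.35). Sema6a, a membrane ligand of A-type plexins, read 664 and 700 in cKO cells, against 764 and 798 in control cells (-0.19, SE 0.26), and its other 2 kept probe sets had the same sign with overlap. Sema6b read 176 and 167 in cKO cells, against 184 and 221 in control cells (-0.23, SE 0.34). In each of these the difference was smaller than its SE. Sema4f overlapped on its brightest probe set, one with the suffix x, at 219 and 91.4 in cKO cells, against 294 and 216 in control cells (-0.83, SE 0.48), and its other kept probe set did not, at 181 and 110 in cKO cells, against 194 and 190 in control cells (-0.44, SE 0.39). In both the low array was cKO replicate 2. A dimmer probe set of Sema4b read 142 and 97.7 in cKO cells, against 148 and 183 in control cells (-0.48, SE 0.38), and one of Sema3a 95.9 and 91.8 in cKO cells, against 101 and 96.4 in control cells (-0.07, SE 0.37). The Sema3a difference changed sign with the scaling, to 0.02 with arrays centred on their median and 0.01 after quantile normalization. Sema6c was the 1 higher in cKO, at 86.8 and 64.2 in cKO cells, against 62.6 and 56.9 in control cells (0.32, SE 0.42). Both control arrays were under the filter signal, so this probe set was kept through the cKO arrays and had to be higher there on average. A dimmer probe set of Sema6c, under the filter, went the other way without overlap. It read 28.8 and 22.5 in cKO cells, against 33.4 and 33.7 in control cells, and the dimmest overlapped.

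By count, 0 of the 43 kept probe sets had a limma adjusted p under 0.05 for genotype, as for 0% of all kept probe sets. At a limma unadjusted p under 0.05 there was 1 (2.33%), that of Sema5a, against 0.724% of all. Without overlap of the arrays 2 (4.65%) were higher in cKO, against 7.87% of all, and 9 (20.9%) lower, against 13.5% of all. With arrays centred on their median the split was 6 higher and 6 lower, and after quantile normalization 5 and 7. Among all kept probe sets without overlap the share higher changed too: 36.8% as deposited, 57.9% centred and 51.0% after quantile normalization. Among the members it was 18.2%, 50% and 41.7% in the same order, smaller than the share of all each time but on few probe sets. All 7 genes named above with no overlap on their brightest probe set kept their sign in both. The 2 higher without overlap, of Sema5a and Sema6c, were kept through the cKO arrays and had to be higher there on average. Of the 9 lower, those of Plxna3 and Plxnc1 were kept through the control arrays. At least 2-fold apart without overlap was 1 probe set higher (2.33%), again that of Sema5a, against 0.12% of all, and 0 lower, against 0.426% of all. Leaving out 1 array changed this count of 1 to 7 without control replicate 1, 8 without control replicate 2, and 3 without cKO replicate 1 or cKO replicate 2. With 1 array left out, 1 genotype rests on a single array of 1 replicate number, so differences by number enter the genotype difference. The log2 difference then ranged from -2.46 to 1.10 for Nrp2 and from -1.74 to 2.15 for Sema7a. Shares over all kept probe sets are not given for those counts, so they are not read as a result about the members. The median log2 difference over the 43 was -0.04, against -0.06 over all kept probe sets. Of 13 genes with several kept probe sets, 9 had 1 sign throughout; Plxna2, Robo1, Sema6d and Sema7a did not. An exact 2-sided permutation of 4 arrays cannot go below p = 0.333, and the limma p-values measure only the spread between these samples.

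**Figure D3:**
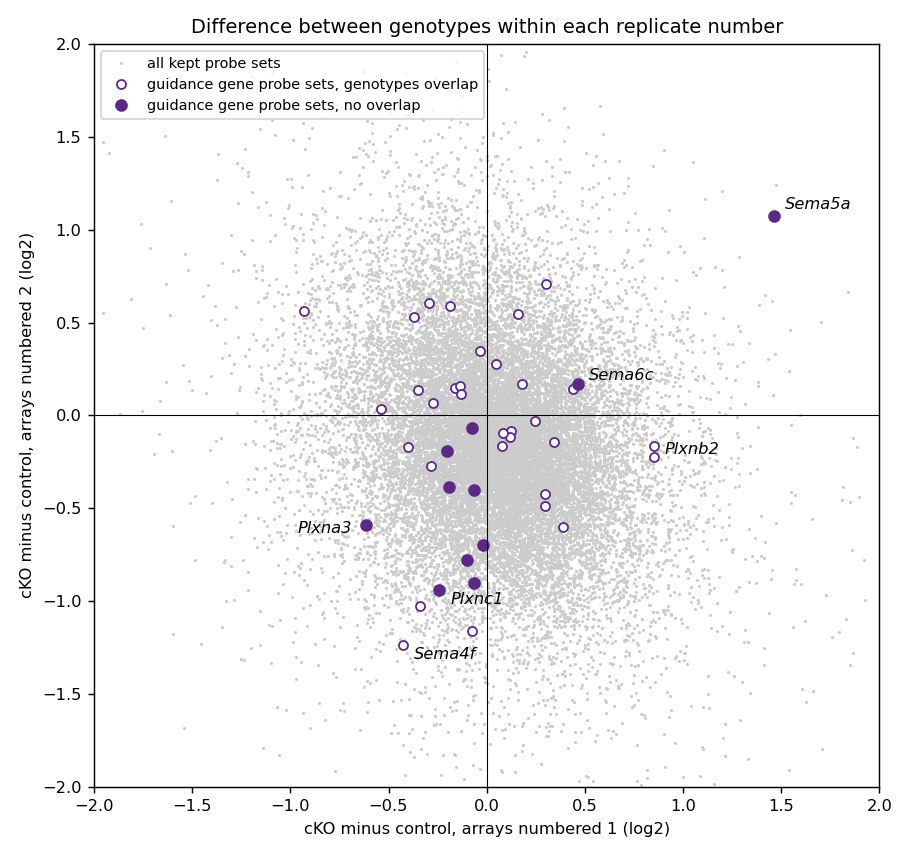
Log2 difference of cKO minus control between the arrays numbered 2 (vertical) against that between the arrays numbered 1 (horizontal) for kept probe sets (grey, 118 of 22519 lie outside the axes) and the 43 kept guidance probe sets (purple; filled where the genotypes do not overlap). Sema5a stands alone at the upper right, at 1.46 and 1.07, and Plxna3 lies at -0.61 and -0.59.

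**Figure D4:**
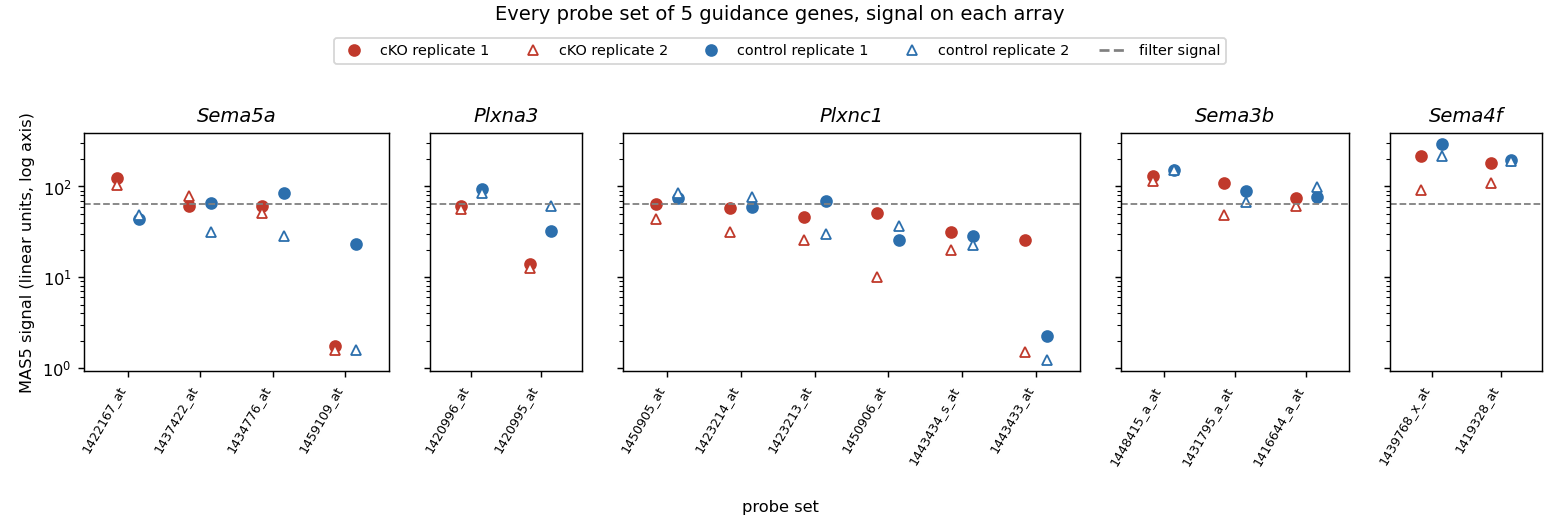
MAS5 signal (linear units, log axis) of every probe set of Sema5a, Plxna3, Plxnc1, Sema3b and Sema4f on the 2 cKO arrays (red, left) and the 2 control arrays (blue, right); circles are replicate 1, triangles replicate 2, and the dashed line is the filter signal. The brightest probe set of Sema5a separates the genotypes and its other 3 overlap between them, while both probe sets of Plxna3 lie lower in cKO.

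The genes that carry these signals inside the cell gave no call by genotype. Of 38 genes listed for semaphorin and plexin signalling 34 were kept, 0 passed, 3 were higher and 5 lower in cKO without overlap, and the median log2 difference was -0.07, against -0.04 over all kept genes. Nearest were Farp2, a Rac activator downstream of A-type plexins, at 114 and 88.1 in cKO cells, against 154 and 149 in control cells (log2 difference -0.59), and Rras, a GTPase that plexins inactivate, at 442 and 474 in cKO cells, against 547 and 743 in control cells (-0.48). Arhgef11 came next and was higher without overlap, at 821 and 1201 in cKO cells, against 792 and 795 in control cells (0.32). Rhoa was lower without overlap (-0.14). In this list, and in the 2 that follow, 0 kept genes had a limma unadjusted p under 0.05 for genotype. For comparison with all 3 lists, 7.87% of all kept probe sets were higher and 13.5% lower in cKO without overlap. The share of all kept probe sets that passed by replicate number, higher on number 1, was 2.12%. By replicate number, 4 of the 34 passed and were higher on number 1: Kdr, the VEGF receptor and Nrp1 partner that is also on the endothelial list, Itga1, L1cam and Mical2 (limma adjusted p = 8.5e-05, 0.000637, 0.00195 and 0.00724). All 4 had both arrays numbered 2 under the filter signal, so they were kept through the arrays numbered 1 and had to be higher there.

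For Slit and Robo signalling 21 of 25 listed genes were kept, 0 passed by genotype, 0 were higher and 1 lower in cKO without overlap (median log2 difference -0.03). That gene was Evl, an actin regulator, at 557 and 401 in cKO cells, against 627 and 742 in control cells (-0.53). Cdh2, Abl2 and Gpc1 overlapped (0.41, -0.30 and 0.21). The endothelial Robo gene Robo4, outside the set described here, read 353 (cKO) and 416 (control) on number 1, against 63.0 (cKO) and 27.9 (control) on number 2 (limma adjusted p = 0.00170), and was the only 1 of the 21 to pass by number. Both of its arrays numbered 2 were under the filter signal, so Robo4 too was kept through the arrays numbered 1 and had to be higher there. Of 36 netrin, ephrin and related guidance genes 18 were kept, with 3 higher and 1 lower in cKO without overlap and a median of -0.12. The netrin gene Ntn4 read 771 and 1631 in cKO cells, against 1629 and 1707 in control cells, with cKO replicate 1 alone low (-0.57). Ntn1 and the netrin receptor genes Unc5a and Unc5b differed by -0.71, -0.57 and -0.60, and of these only Unc5a did not overlap. In that list 0 passed by genotype, and Efnb2, an arterial ephrin, was the 1 gene that passed by number (limma adjusted p = 0.00448).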

How the data were processed

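RNA of YFP-positive satellite cells from 2 cKO and 2 control samples was hybridised to 1 array each. Per the submitters' processing notes, the authors made the deposited intensities with MAS5; they are linear, and no scaling target is stated in the labels. Precision is limited by the number of arrays. Values were analysed as log2(value + 1), so fold changes of low signals are understated. The 64 AFFX probe sets were left out, and a probe set was kept when its mean log2 value reached the median of all (22519 kept). A gene is represented by its probe set with the highest mean log2 value; 932 probe sets with several symbols were not used, and all 91 member probe sets were found in the gene table with 0 symbols changed. Genotype, and separately replicate number, was tested with limma 3.58.1 in R 4.3.3 (eBayes with an intensity trend, 2-sided, Benjamini-Hochberg over all kept probe sets; 2 residual and 5.32 or 7.88 prior degrees of freedom). The steps were tested on simulated data.

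The members, lists and tests were chosen with earlier results of these data known. Values per array are given for genes at or above the filter signal on all arrays, for up to 6 genes per direction by genotype and 8 by replicate number with the smallest limma p and no overlap, up to 4 genes per pathway list, and examples from marker lists. The motifs and the windows shown were chosen after the values were seen. Coordinates and sequences are from RefSeq GRCm38.p6. Alternatives tried were a filter at the 75th percentile or none, a pseudocount of 32, quantile normalization, arrays centred on their median, no trend, a replicate block, a genotype term, probe sets without a suffix, and leaving out each array.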

Additional observations from a re-analysis of the deposited data

How the results depend on the processing

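No guidance probe set passed by genotype (main count 0) under any alternative run, including the replicate block, under which the count was 0. The replicate numbers were not taken as pairs, since no label ties them and there are only 2; deviations of same-numbered arrays correlated at 0.434 across probe sets. The count of probe sets at least 2-fold apart by genotype without overlap (1 higher, 0 lower) was 0 with a pseudocount of 32 and 0 with the filter at the 75th percentile, where Sema5a was not kept. With no filter it was 5, of which 3 were higher and 2 lower. With 1 array left out, 1 genotype rests on a single array and differences by replicate number enter the count. Leaving out 1 array gave 3 to 8, with 0 to 7 higher and 0 to 7 lower. By replicate number the 8 probe sets that passed were 3 with the filter at the 75th percentile, which kept only those of Nrp1, and 5 to 11 with 1 array left out. The 8 at least 2-fold apart in both genotypes were 3 with that filter and 18 with no filter. That count needs all 4 arrays, so it has no value with 1 left out. Genes at or above the filter signal on all arrays numbered 10 with the filter at the 75th percentile, 18 with only unsuffixed probe sets, and 15 to 17 with 1 array left out; without a filter there is no value. The 7 genes without overlap by genotype on their brightest probe set kept their sign after quantile normalization and after centring. The other alternatives could not have changed it, because arrays without overlap keep their order under them. The dimmer probe set of Sema3a without overlap changed sign, with 0.02 after centring. Of the differences by number, 2 passed only with an array left out: Sema4a without cKO replicate 2 and Sema4f without control replicate 2. The signals give no detection calls, so readings under the filter signal could not be told from background.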
